A study of Mus musculus with 11 samples.

Results

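The KEAP1-NRF2 antioxidant genes analyzed here are Keap1, Nfe2l2, Nqo1, Hmox1, Gclc, Gclm, Txnrd1, Srxn1, Slc7a11 and Gsr. They were taken from a list of names to which no threshold on a measured value was applied, and all 10 were found among the 14272 genes with a value in every library. Keap1 is also a hub of the light cyan co-expression module, which the study derived from the same series, with triplicates of each cell line. Total RNA was sequenced from 4 murine cell lines of a melanoma progression model, with 2 libraries of melan-a (replicates 2 and 3) and 3 libraries each of 4C, 4C11- and 4C11+. Melan-a is a spontaneously immortalized line of nonmalignant melanocytes with an epithelial morphology, syngeneic to C57Bl/6 mice and cultured with 200 nM of the phorbol ester PMA. The pre-malignant 4C line, the non-metastatic melanoma line 4C11- and the metastatic melanoma line 4C11+ were obtained from melan-a by repeated blocking of anchorage and were cultured without PMA. Of the derived lines, 4C11+ is epithelial and the others are mesenchymal-like. Apart from the PMA, all lines shared the same serum-supplemented medium, and no other treatment is described. Whether PMA acted on this pathway in melan-a was not tested. Each stage of the model is a single cell line. A difference from melan-a therefore cannot be told apart from the removal of PMA, and a difference between stages cannot be told apart from a difference between individual lines.

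KEAP1 is a cytoplasmic sensor protein that binds the transcription factor NRF2, encoded by Nfe2l2, and delivers it to a CUL3 ubiquitin ligase for degradation. When oxidants or electrophiles modify cysteines of KEAP1, NRF2 accumulates, enters the nucleus, pairs with a small MAF protein and binds antioxidant response elements near genes for glutathione synthesis, thioredoxin recycling, quinone reduction and NADPH supply. The pathway is regulated largely at the protein level, and transcript levels of Keap1 and Nfe2l2 do not measure the activity of their proteins. In melanocytes, cystine import through the product of Slc7a11 also supplies the cysteine used to make the reddish pigment pheomelanin.

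To show the kind of sequence through which NRF2 acts, promoters of the members were searched on both strands for TGACNNNGC and TGANTCAGC, a pair of short forms of the antioxidant response element, in which N is any base. The motifs overlap, since a run of 9 bases can match both. Promoters here are the 250 bases before and the 50 bases after a start site in RefSeq, on build GRCm38.p6. Of the 32851 promoters in that table, 12.4% held the first motif, 1.19% the second and 13.0% either one. Among the 10 members, 7 had a promoter in the table, with 9 promoters in all, and 4 of these 7 genes (Nfe2l2, Gclm, Txnrd1 and Srxn1) held a match. Counted by promoter, as in the 13.0%, 4 of the 9 held one. Windows of 100 bases are shown for these genes and, as the promoter of the member with the widest range between lines, for Nqo1, whose window holds no match. Capitals mark the matched letters, and the sequences are written along the strand of the gene.

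Srxn1, chr2:152105424-152105523, plus strand: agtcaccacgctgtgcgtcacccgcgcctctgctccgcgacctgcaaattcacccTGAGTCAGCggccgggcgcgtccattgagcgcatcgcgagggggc
Gclm, chr3:122245377-122245476, plus strand: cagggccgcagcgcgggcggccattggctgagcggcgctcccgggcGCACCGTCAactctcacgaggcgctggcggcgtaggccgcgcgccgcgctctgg
Txnrd1, chr10:82859064-82859163, plus strand: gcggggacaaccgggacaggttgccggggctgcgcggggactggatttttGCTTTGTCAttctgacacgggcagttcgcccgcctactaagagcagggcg
Nfe2l2, chr2:75704814-75704913, minus strand: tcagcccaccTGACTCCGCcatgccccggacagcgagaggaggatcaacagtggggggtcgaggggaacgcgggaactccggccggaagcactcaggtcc
Nqo1, chr8:107403206-107403305, minus strand: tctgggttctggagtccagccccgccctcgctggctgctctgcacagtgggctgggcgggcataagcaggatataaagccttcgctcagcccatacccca

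The first matched base lay 45 bases before the start site of Srxn1, 92 bases before that of Txnrd1, 134 bases before that of Gclm and 240 bases before that of Nfe2l2. In Gclm and Txnrd1 the match was on the strand opposite to the gene, and for Txnrd1 only the promoter shown, 1 of its 3 in the table, held a match. Srxn1 held a second match, to TGACNNNGC on the opposite strand, 28 bases after the start site and outside the window shown. A match is a run of letters and was not tested for binding, and the absence of a match covers only the searched window.

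Values are log2 CPM as deposited, the log2 of the read count of a gene scaled to the reads of its library, and differences are log2 differences between line means, with standard errors from limma fitted over all genes. Depth was estimated at 3.50 to 7.42 M reads per library, and libraries of the same line correlated across genes at 0.888 to 0.981. The lines were checked with markers of their labeled cell type. The summed level of 7 melanocyte markers was 10.77 and 13.13 log2 CPM in melan-a and 13.37 to 13.65 in 4C11+, against 1.82 to 2.70 in 4C and 1.59 to 3.52 in 4C11-. Tyr, which encodes tyrosinase, was at or under 3 reads in every library of 4C and 4C11- and was also low in melan-a, at -0.25 and 1.29, against 8.39 to 8.70 in 4C11+, and Sox10 was at or under 3 reads in every 4C library. Pmel was also lower in melan-a, at 2.41 and 2.95, than in 4C11+, at 11.72 to 12.20. The summed level of the 3 measured fibroblast markers was 10.70 to 11.11 in 4C and 4C11- and 3.05 to 3.25 in 4C11+. In melan-a it was 6.42 in replicate 2, where Pdgfra alone was at 6.38, and 4.17 in replicate 3. Cd68, the only measured marker of leukocytes, reached 6.35 in melan-a replicate 2 and was 1.78 to 2.91 in the other libraries. Cdh1, the only measured marker of keratinocytes, was at 0.06 and 1.21 in melan-a and -2.01 to -0.70 in 4C. It was at 0.42 to 1.36 in 4C11- and -0.70 to 0.44 in 4C11+. The summed melanocyte and fibroblast levels moved with the epithelial and mesenchymal-like lines compared below, whereas Cd68 and Cdh1 did not. The part of these markers in the results was not tested. In these bulk samples, a smaller share of cells with a transcript and less transcript per cell cannot be told apart.

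The 10 genes did not follow a single pattern across the lines. Metastatic 4C11+ cells had the highest mean of Keap1, Nfe2l2, Txnrd1, Slc7a11 and Gsr and the lowest mean of Gclc. Nqo1 was lowest in melan-a and highest in 4C11-, Srxn1 was high in both 4C and 4C11+, Gclm was lowest in 4C11-, and Hmox1 had nearly the same mean in every line. The span between the lowest and the highest line mean was 5.50 on the log2 scale for Nqo1, wider than that of 94.4% of all genes. It was 3.50 for Slc7a11, 2.05 for Srxn1, 0.83 for Nfe2l2 and 0.14 for Hmox1, the last narrower than that of all but 0.413% of genes. Per kilobase of exon, Txnrd1 had the highest mean level over the lines, at a log2 value of 6.43, followed by Srxn1 at 6.27, Gsr at 6.16 and Hmox1 at 6.05. Keap1 at 3.75 and Slc7a11 at 1.24 were the lowest on this scale, and the exon length of Slc7a11 of 13.922 kb includes long isoforms that lower its value.

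**Figure D1:**
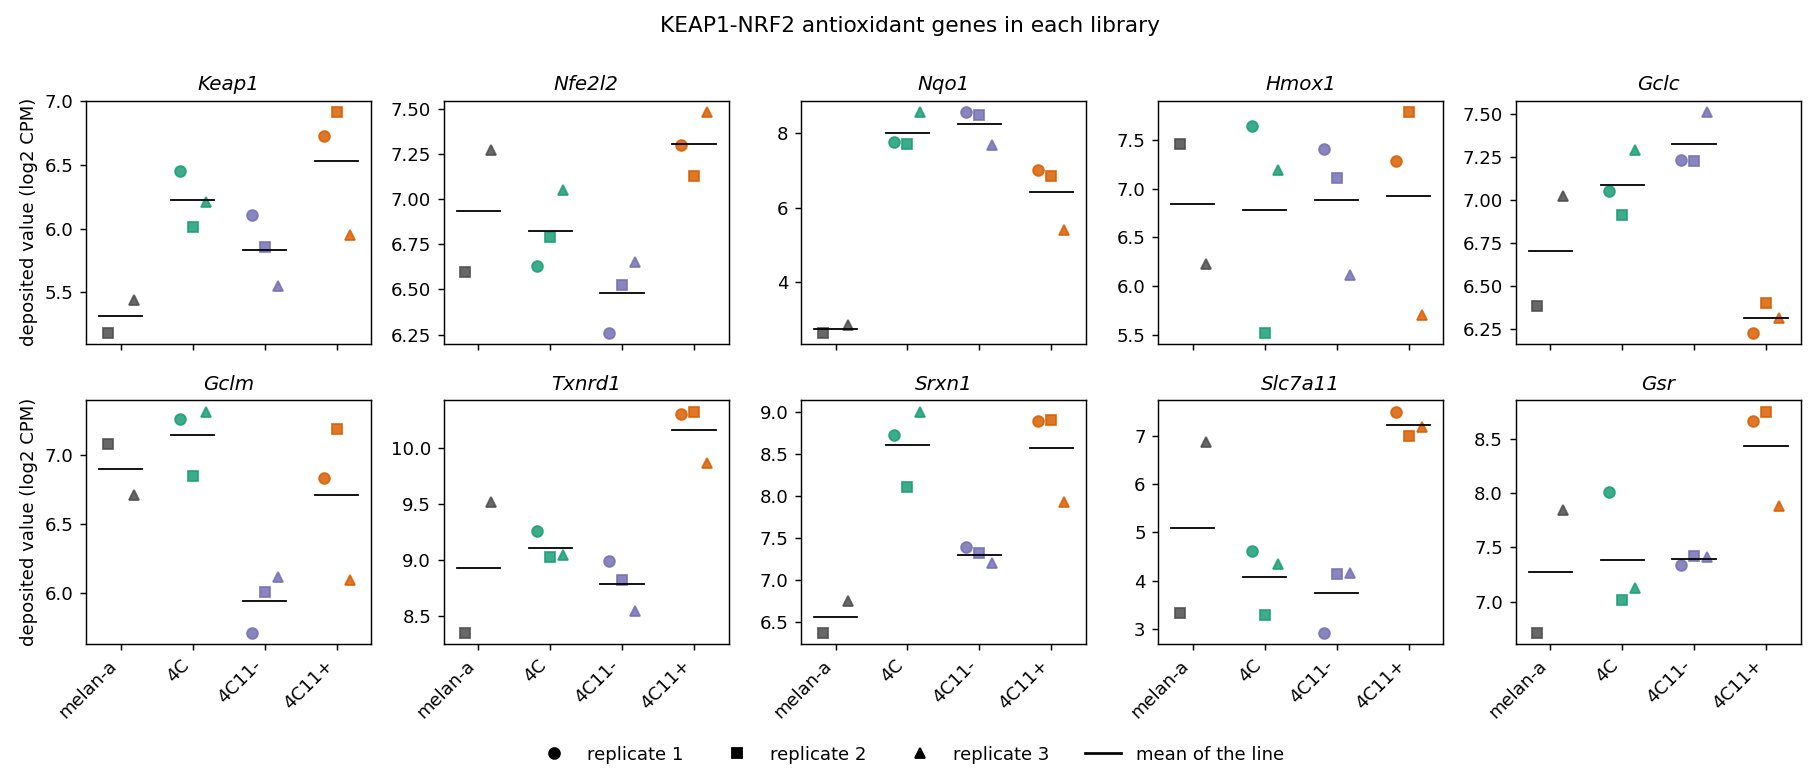
Deposited log2 CPM of the 10 genes in each of the 11 libraries, by cell line, with the mean of each line as a bar and the replicate number as the symbol; each panel has its own vertical axis. Txnrd1 and Slc7a11 are higher in all 3 libraries of 4C11+ than in any other library, Nqo1 is under 3 in both melan-a libraries, and the lines overlap for Hmox1.

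Keap1 (ENSMUSG00000003308, chr9:21229730-21239361) was at 5.18 and 5.44 log2 CPM in melan-a. It was at 6.45, 6.01 and 6.21 in 4C, at 6.11, 5.85 and 5.55 in 4C11-, and at 6.73, 6.92 and 5.95 in 4C11+, for replicates 1 to 3. Both melan-a libraries were under every library of the derived lines, whereas 4C11+ replicate 3 lay within the range of 4C11-. The mean ± SD of melan-a was 5.31 ± 0.182 (n = 2), and those of 4C, 4C11- and 4C11+ were 6.22 ± 0.219, 5.84 ± 0.280 and 6.53 ± 0.511 (n = 3 each). Keap1 rose 2.33-fold from melan-a to 4C11+, a log2 difference of 1.22 ± 0.31 (SE, limma adjusted p = 0.0222). The difference between 4C and melan-a was 0.91 ± 0.31 (limma adjusted p = 0.0743), and that between 4C11- and melan-a was 0.52 ± 0.31 (limma adjusted p = 0.327). From 4C to 4C11- it was -0.39 ± 0.28 (limma adjusted p = 0.608), from 4C11- to 4C11+ 0.70 ± 0.28 (limma adjusted p = 0.0797) and from 4C to 4C11+ 0.31 ± 0.28 (limma adjusted p = 0.429), so no neighbors in the order melan-a, 4C11-, 4C, 4C11+ passed the test, although the libraries of melan-a and 4C11- did not overlap. Keap1 in 4C11+ exceeded the average of the remaining lines by 0.74 ± 0.23 (limma adjusted p = 0.0286), and the difference of the mesenchymal-like from the epithelial lines was 0.11 ± 0.21 (limma adjusted p = 0.747). The Keap1 result against melan-a had an adjusted p of 0.13 without melan-a replicate 2, 0.0879 without 4C11+ replicate 1 and 0.0915 without 4C11+ replicate 2, and the step from 4C11- to 4C11+ reached 0.99 (limma adjusted p = 0.0148) without 4C11+ replicate 3. The result against the other lines had an adjusted p of 0.0513, 0.0546, 0.143 and 0.178 without melan-a replicate 2, 4C replicate 2, 4C11+ replicate 1 and 4C11+ replicate 2.

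Nfe2l2 (ENSMUSG00000015839, chr2:75675513-75704641), the gene of NRF2 itself, varied less between lines than Keap1. It was at 6.60 and 7.27 log2 CPM in melan-a, at 6.63, 6.79 and 7.05 in 4C, at 6.26, 6.52 and 6.65 in 4C11-, and at 7.30, 7.13 and 7.49 in 4C11+. All 3 libraries of 4C11+ were above those of 4C and 4C11-, and the higher melan-a library lay within the range of 4C11+. In the order melan-a, 4C, 4C11-, 4C11+ the mean ± SD was 6.93 ± 0.477 (n = 2), 6.82 ± 0.214, 6.48 ± 0.199 and 7.31 ± 0.178 (n = 3 each). Nfe2l2 rose 1.77-fold from 4C11- to 4C11+, a log2 difference of 0.83 ± 0.23 (limma adjusted p = 0.0185), and in 4C11+ exceeded the average of the remaining lines by 0.56 ± 0.19 (limma adjusted p = 0.0432). The first result had an adjusted p of 0.0505, 0.0616 and 0.0563 without 4C11- replicate 2, 4C11+ replicate 1 and 4C11+ replicate 3, and the second was not called in 9 of 19 alternative analyses, with an adjusted p of up to 0.137. The other differences of Nfe2l2 did not pass the test. They were -0.11 ± 0.26 for 4C against melan-a (limma adjusted p = 0.846), -0.35 ± 0.23 for 4C11- against 4C (limma adjusted p = 0.578) and -0.46 ± 0.26 for 4C11- against melan-a (limma adjusted p = 0.301). For 4C11+ they were 0.37 ± 0.26 against melan-a (limma adjusted p = 0.362) and 0.48 ± 0.23 against 4C (limma adjusted p = 0.138), and the mesenchymal-like lines differed from the epithelial lines by -0.47 ± 0.17 (limma adjusted p = 0.0633). This last difference was called in 4 of 19 alternative analyses, and without melan-a replicate 2 it was -0.64 (limma adjusted p = 0.0189).

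Nqo1 (ENSMUSG00000003849, chr8:107388225-107403206) encodes NAD(P)H quinone dehydrogenase, which reduces quinones to hydroquinones and is a classical NRF2 target. It was at 2.65 and 2.86 log2 CPM in melan-a, where 3 reads correspond to -0.25 and -0.54. It was at 7.75, 7.71 and 8.56 in 4C, at 8.58, 8.49 and 7.68 in 4C11- and at 7.01, 6.84 and 5.42 in 4C11+. The derived lines were thus far above melan-a in every library, and every 4C11+ library was below every library of 4C and 4C11-. Nqo1 rose 38.1-fold from melan-a to 4C (5.25 ± 0.47, limma adjusted p = 1.05e-05), and its difference between 4C11- and 4C was 0.25 ± 0.42 (limma adjusted p = 0.851). It fell 3.55-fold from 4C11- to 4C11+ (-1.83 ± 0.42, limma adjusted p = 0.0061) and remained 12.7-fold above melan-a there (3.67 ± 0.47, limma adjusted p = 0.000365). Over the mesenchymal-like lines it was 11.6-fold higher than over the epithelial lines (3.54 ± 0.31, limma adjusted p = 4.77e-06), and it was the only member whose libraries did not overlap in that comparison. This average joins a melan-a mean of 2.76 with a 4C11+ mean of 6.42. In a fit without melan-a replicate 2, 4C11- replicate 1 and 4C11+ replicate 3 together, the step from 4C11- to 4C11+ was -1.16 (limma adjusted p = 0.0229). These were chosen after the data were seen, the first for the fewest reads of its line and the others for the lowest mean correlation with the other libraries of their line. From 4C to 4C11+ Nqo1 fell by 1.58 ± 0.42 on the log2 scale (limma adjusted p = 0.013), with an adjusted p of 0.063 without 4C replicate 3.

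Txnrd1 (ENSMUSG00000020250, chr10:82833951-82897712) encodes thioredoxin reductase of the cytosol, which uses NADPH to recycle thioredoxin. It was at 8.35 and 9.52 log2 CPM in melan-a, at 9.26, 9.02 and 9.05 in 4C, at 8.99, 8.83 and 8.54 in 4C11- and at 10.31, 10.33 and 9.87 in 4C11+. The 3 libraries of 4C11+ were the highest of all 11. Txnrd1 rose 2.60-fold from 4C11- to 4C11+ (1.38 ± 0.28, limma adjusted p = 0.0029) and was 2.08-fold higher in 4C11+ than in 4C (1.06 ± 0.28, limma adjusted p = 0.0126). Against melan-a the increase was 2.35-fold (1.23 ± 0.31, limma adjusted p = 0.0201) and rested on melan-a replicate 2, without which it was 0.65 (limma adjusted p = 0.182). The adjusted p of this comparison was 0.0763 and 0.0764 without 4C11+ replicates 1 and 2, and that of 4C11+ against 4C was 0.0547 and 0.0556. Against the average of the remaining lines Txnrd1 in 4C11+ was higher by 1.22 ± 0.23 (limma adjusted p = 0.0018), a call that remained in all 19 alternative analyses. Its lower level in the mesenchymal-like lines, -0.60 ± 0.21 (limma adjusted p = 0.0471), was lost in 10 of 19, and without melan-a replicate 3 it was -0.31 (limma adjusted p = 0.199).

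Srxn1 (ENSMUSG00000032802, chr2:152105516-152111376) encodes sulfiredoxin, which restores overoxidized peroxiredoxins. It was at 6.37 and 6.75 log2 CPM in melan-a, at 8.73, 8.10 and 9.01 in 4C, at 7.39, 7.32 and 7.20 in 4C11- and at 8.89, 8.91 and 7.92 in 4C11+. The levels alternated along the series, and only 4C and 4C11+ overlapped. Srxn1 rose 4.16-fold from melan-a to 4C (2.05 ± 0.34, limma adjusted p = 0.0014) and 2.42-fold from 4C11- to 4C11+ (1.27 ± 0.30, limma adjusted p = 0.0076). The difference from 4C to 4C11- was -1.31 ± 0.30 and did not pass the test over all genes (limma adjusted p = 0.0552), although the libraries did not overlap. Srxn1 was 4.04-fold higher in 4C11+ than in melan-a (2.02 ± 0.34, limma adjusted p = 0.0024) and exceeded the average of the remaining lines there by 1.08 ± 0.25 (limma adjusted p = 0.0063, and 0.0504 and 0.0501 without 4C11+ replicates 1 and 2).

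Slc7a11 (ENSMUSG00000027737, chr3:49892526-50443614) encodes xCT, the light chain of the cystine and glutamate exchanger that supplies cysteine for glutathione. It was at 7.51, 7.01 and 7.18 log2 CPM in 4C11+, above every other library. It was at 4.62, 3.28 and 4.33 in 4C and at 2.92, 4.13 and 4.15 in 4C11-. The melan-a libraries were far apart, with 3.33 in replicate 2, among the mesenchymal-like values, and 6.87 in replicate 3, close to 4C11+. Slc7a11 rose 11.3-fold from 4C11- to 4C11+ (3.50 ± 0.73, limma adjusted p = 0.0036) and was 8.91-fold higher in 4C11+ than in 4C (3.15 ± 0.73, limma adjusted p = 0.0062), and both calls were kept in all 20 alternative analyses. Against melan-a the difference was 2.14 and was not called (limma adjusted p = 0.0993). The lower level in the mesenchymal-like lines, -2.26 ± 0.54 (limma adjusted p = 0.0082), was -1.37 without melan-a replicate 3. Slc7a11 in 4C11+ exceeded the average of the remaining lines by 2.93 ± 0.60 (limma adjusted p = 0.0032).

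The subunits of glutamate-cysteine ligase, which catalyzes the first and limiting step of glutathione synthesis, did not change together. Gclc (ENSMUSG00000032350, chr9:77754535-77794485), the catalytic subunit, was at 6.38 and 7.02 log2 CPM in melan-a, at 7.05, 6.91 and 7.29 in 4C, at 7.23, 7.23 and 7.51 in 4C11- and at 6.23, 6.40 and 6.31 in 4C11+. All 4C11+ libraries were below those of 4C and 4C11-. Gclc fell 2.01-fold from 4C11- to 4C11+ (-1.01 ± 0.22, limma adjusted p = 0.0045) and was 1.71-fold lower in 4C11+ than in 4C (-0.77 ± 0.22, limma adjusted p = 0.0184, and 0.0743 and 0.0753 without 4C replicate 3 and 4C11+ replicate 1). It was higher in the mesenchymal-like than in the epithelial lines by 0.70 ± 0.16 (limma adjusted p = 0.0070) and differed in 4C11+ from the average of the remaining lines by -0.72 ± 0.18 (limma adjusted p = 0.0096, and 0.0587 without 4C11+ replicate 1). Gclm (ENSMUSG00000028124, chr3:122245557-122270732), the modifier subunit, was at 7.08 and 6.71 in melan-a, at 7.26, 6.85 and 7.31 in 4C, at 5.71, 6.01 and 6.11 in 4C11- and at 6.84, 7.19 and 6.10 in 4C11+. Its 4C11- libraries were below those of melan-a and 4C, and 4C11+ replicate 3 lay within the range of 4C11-. Gclm passed the test in no comparison of the main fit, with differences of -1.20 to 0.76 and the lowest adjusted p from limma of 0.0613, for 4C11+ against 4C11-. Without 4C11+ replicate 3, 8 members were called in that comparison, with Keap1 and without Nfe2l2, so Gclm or Hmox1 was among them. Of all genes, 4172 were called in that fit, against 4433 with all libraries.

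Gsr (ENSMUSG00000031584, chr8:33652523-33698163) encodes glutathione reductase, which returns oxidized glutathione to its reduced form with NADPH. It was at 6.71 and 7.84 log2 CPM in melan-a, at 8.01, 7.02 and 7.12 in 4C, at 7.34, 7.42 and 7.41 in 4C11- and at 8.66, 8.75 and 7.88 in 4C11+. The values of 4C11+ replicates 1 and 2 were the highest, and replicate 3 was below one 4C library. Gsr rose 2.06-fold from 4C11- to 4C11+ (1.04 ± 0.35, limma adjusted p = 0.0416) and was higher in 4C11+ than in 4C by 1.05 ± 0.35 (limma adjusted p = 0.0398). These calls were lost in 7 and 6 of 20 alternative analyses. The first had an adjusted p of 0.149 without 4C11+ replicate 2, 0.14 without 4C11+ replicate 1 and 0.051 to 0.0916 without 4C replicate 3 or any library of 4C11-. The second had one of 0.148 without 4C replicate 2, 0.131 without 4C replicate 3, 0.0566 without 4C11- replicate 2, and 0.136 and 0.148 without 4C11+ replicates 1 and 2. Gsr in 4C11+ exceeded the average of the remaining lines by 1.08 ± 0.29 (limma adjusted p = 0.014, and 0.0802 and 0.0874 without 4C11+ replicates 1 and 2).

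Hmox1 (ENSMUSG00000005413, chr8:75093621-75100589) encodes heme oxygenase 1, which degrades heme and is induced by many stresses in addition to NRF2 activation. It was at 7.46 and 6.23 log2 CPM in melan-a, at 7.65, 5.52 and 7.19 in 4C, at 7.42, 7.12 and 6.11 in 4C11- and at 7.29, 7.80 and 5.70 in 4C11+. All lines overlapped, and replicates of the same line differed by more than 1 on the log2 scale in each line. The differences between lines were -0.06 to 0.14, and Hmox1 was called in no comparison of the main fit. With a standard error of 0.64, the 95% interval for 4C11+ against 4C11- was -1.35 to 1.45, so changes of over 2-fold in either direction remain within it.

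Counted by step, 2 of the 10 genes were called from melan-a to 4C, Nqo1 and Srxn1, where 15.2% of all genes were called. Both were higher, as were 7.64% of all genes. The libraries of these lines did not overlap for 3 members, the called ones and Keap1, against 42.1% of all genes. From 4C to 4C11- none passed limma's test, where 1.67% of all genes did. In that step the libraries did not overlap for 3 members, Gclm, Txnrd1 and Srxn1, against 19.3% of all genes. The number called there was 2 without 4C11+ replicate 3, where 196 of all genes were called, against 238 with all libraries. From 4C11- to 4C11+, 7 members were called, against 31.1% of all genes. Of these, 5 were higher (Nfe2l2, Txnrd1, Srxn1, Slc7a11 and Gsr), against 15.6% of all genes, and 2 lower (Nqo1 and Gclc), against 15.4%. The same 7 had libraries that did not overlap, against 47.0% of all genes. The median difference of the members in this step was 0.79, beside 0.12 over all genes. Keap1, Gclm and Hmox1, the members not called, had differences of 0.05 to 0.76.

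Between the ends of the series, 4 members were called in 4C11+ against melan-a (Keap1, Nqo1, Txnrd1 and Srxn1), where 15.9% of all genes were. All 4 were higher, as were 8.39% of all genes, and 6 members did not overlap, against 46.6% of all genes. The number called was 2 without 4C11+ replicate 1 and also without 4C11+ replicate 2. Of all genes, 1089 and 1145 were called in these fits, against 2270 with all libraries. Nqo1 was the only member called in 4C11- against melan-a (5.50 ± 0.47, limma adjusted p = 8.16e-06), where 13.6% of all genes were called and 7.55% were higher. There 5 members did not overlap, against 36.6% of all genes. A second member was called when 4C11+ replicate 3 was left out, where 1873 of all genes were called, against 1940 with all libraries. In 4C11+ against 4C, 5 members were called, against 31.7% of all genes, with 3 higher (17.1% of all genes) and 2 lower (14.6%). The same number did not overlap, against 51.3% of all genes. The number called was 2 without 4C replicate 3 or 4C11+ replicate 1 and 3 without 4C11+ replicate 2. Of all genes, 3251, 3117 and 3120 were called in these fits, against 4528 with all libraries.

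Over the mesenchymal-like against the epithelial lines 4 members were called, against 29.7% of all genes. Nqo1 and Gclc were higher, with 14.3% of all genes, and Txnrd1 and Slc7a11 lower, with 15.3%. Only 1 member, Nqo1, did not overlap, against 13.9% of all genes. In 4C11+ against the other lines 7 members were called, against 34.0% of all genes. Of them, 6 were higher (18.3% of all genes) and Gclc was lower (15.8%), and Txnrd1 and Slc7a11 were the 2 without overlap, against 20.6% of all genes. The number called was 2 without 4C11+ replicate 1 and 3 without 4C11+ replicate 2. Of all genes, as few as 3001 were called when a single library was left out, against 4856 with all libraries. These comparisons share libraries and do not support each other independently.

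**Figure D2:**
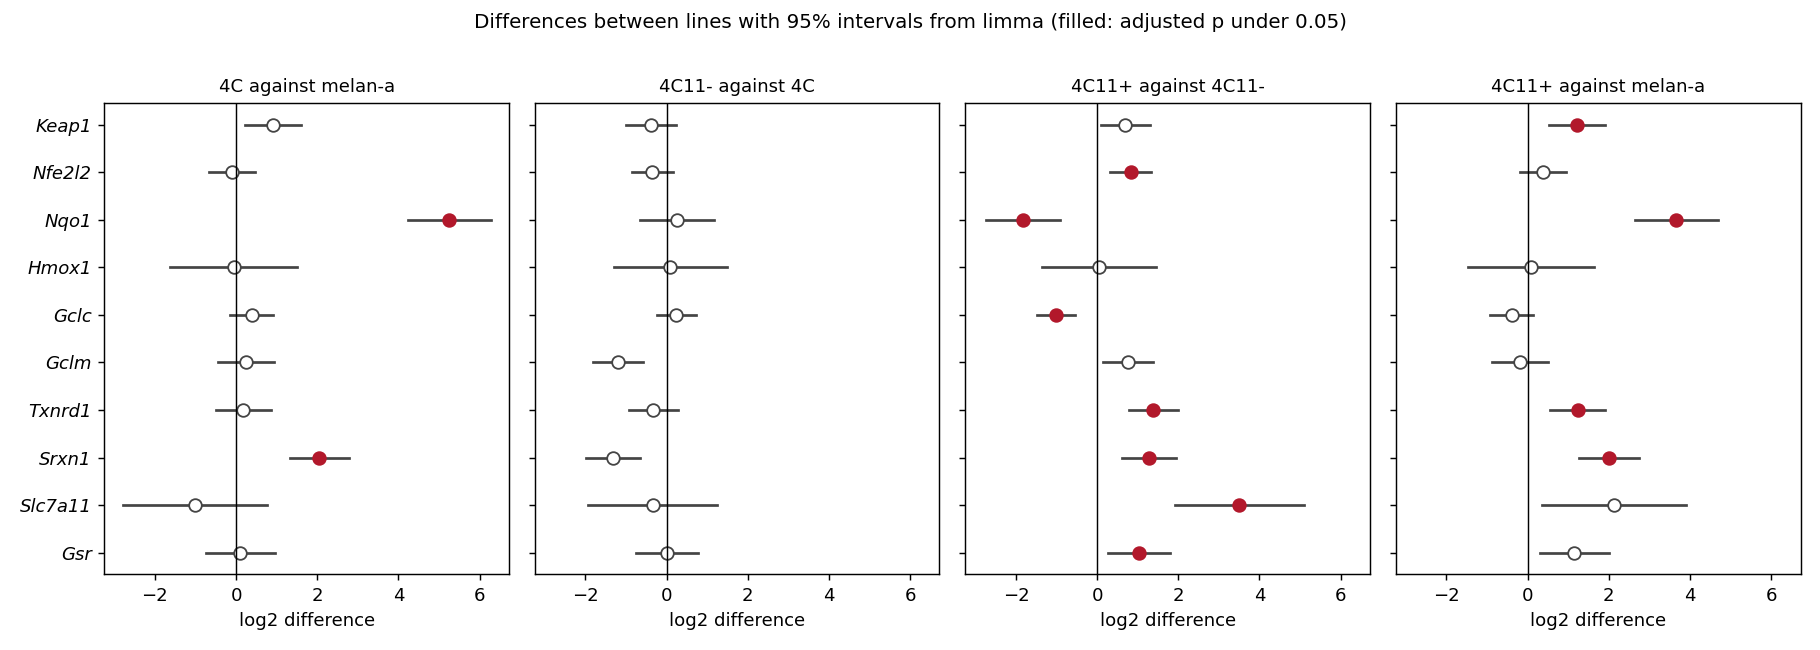
Log2 differences of the 10 genes between cell lines (horizontal axis), with 95% intervals from limma as lines and filled points for an adjusted p under 0.05. From melan-a to 4C only Nqo1 and Srxn1 are filled, from 4C to 4C11- none is, and from 4C11- to 4C11+ 5 genes are filled on the higher side and Nqo1 and Gclc on the lower side.

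The genes that act around the members were described with 7 lists of 75 genes, of which 70 were measured. Of these 70, 18 were called higher and 9 lower from 4C11- to 4C11+, or 38.6%. From melan-a to 4C 7 were higher and 3 lower, or 14.3%, and from 4C to 4C11- 1 was higher and 1 lower, or 2.86%. These shares stand beside the 31.1%, 15.2% and 1.67% of all genes given above.

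Among 12 regulators of the pathway, none was called from melan-a to 4C. From 4C11- to 4C11+, 3 were higher (Sqstm1, Gsk3b and Bach1) and 1 was lower (Maff), 33.3% in all. Sqstm1, which encodes p62, a protein that can sequester KEAP1, was at 9.76 and 8.93 log2 CPM in melan-a. It was at 9.55 to 10.36 in 4C, at 9.23 to 9.91 in 4C11- and at 11.19, 11.19 and 10.47 in 4C11+. The difference of 4C11+ from 4C was not called. It rose from 4C11- to 4C11+ by 1.43 ± 0.31 (limma adjusted p = 0.00499) and was higher in 4C11+ than in melan-a by 1.60 ± 0.35 (limma adjusted p = 0.0108, and 0.0655 without melan-a replicate 3). Bach1, a repressor that competes with NRF2 for the same elements, was the only regulator called from 4C to 4C11-, where it fell by 1.20 ± 0.25 on the log2 scale (limma adjusted p = 0.035), with 6.49 to 6.98 in 4C and 5.09 to 5.90 in 4C11-. It rose again by 0.75 ± 0.25 to 4C11+ (limma adjusted p = 0.0388). Each of the Bach1 results was lost when a single library of 4C11+ was left out, whichever it was. The first was also lost when any single library of 4C or 4C11- was left out, and the second without replicate 1 or 3 of 4C11-, with an adjusted p of up to 0.148 and 0.107. Maff, a small MAF partner of NRF2, fell from 4C11- to 4C11+ by 2.12 ± 0.47 on the log2 scale (limma adjusted p = 0.00503).

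Several glutathione transferases differed widely between the lines. Gsta4, a glutathione S-transferase for lipid aldehydes, was at or under 3 reads in both melan-a libraries and at 6.64 to 7.67 log2 CPM in 4C and 4C11-, a difference of at least 7.60 from melan-a to 4C, and it was lower again in 4C11+, with 2.71 in the lowest library. Mgst2, a membrane-bound glutathione transferase, rose by 4.96 ± 0.72 from melan-a to 4C (limma adjusted p = 0.000581) and was at or under 3 reads in every 4C11+ library, at least 5.03 below 4C11-. Gsto1 was higher in 4C than in melan-a by 1.52 ± 0.35 (limma adjusted p = 0.0122, and 0.0946 without melan-a replicate 2) and fell by 1.82 ± 0.31 on the log2 scale from 4C11- to 4C11+ (limma adjusted p = 0.00107). Of the 16 measured genes of this list, 3 rose and 1 fell from melan-a to 4C, 25.0% in all, and 1 rose and 4 fell from 4C11- to 4C11+, 31.2%. Gss, which encodes glutathione synthetase, was higher in 4C11+ than in melan-a by 1.35 ± 0.36 (limma adjusted p = 0.0252), a call lost without either melan-a library and without 4C11+ replicate 1 or 2, with an adjusted p of up to 0.124.

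NADPH is the electron donor of the products of Txnrd1 and Gsr. Of 6 genes of NADPH supply, none was called from melan-a to 4C or from 4C to 4C11-, and 3 rose from 4C11- to 4C11+, namely Pgd of the pentose phosphate pathway by 1.35 ± 0.26 (limma adjusted p = 0.00208), Taldo1 by 1.11 ± 0.25 (limma adjusted p = 0.00512) and G6pdx, the first enzyme of that pathway, by 0.79 ± 0.19 (limma adjusted p = 0.00698). Pgd was at 6.78 to 7.32 log2 CPM in the other lines and at 8.66, 8.83 and 7.87 in 4C11+. Of 13 thioredoxin and peroxiredoxin genes, 4 rose and 2 fell in the same step, 46.2% in all. Txnrd2, the mitochondrial thioredoxin reductase, rose by 1.73 ± 0.27 (limma adjusted p = 0.00047), and Prdx4, the peroxiredoxin of the endoplasmic reticulum, fell by 1.20 ± 0.24 on the log2 scale (limma adjusted p = 0.00255). None of the 4 genes that remove superoxide and peroxide was called from 4C11- to 4C11+, and Sod1 was lower in 4C11+ than in 4C by -0.90 ± 0.25 (limma adjusted p = 0.0166, and up to 0.0621 without 4C replicate 3 or 4C11+ replicate 3).

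Of 7 genes of heme and iron handling, 2 rose from 4C11- to 4C11+, Blvrb, which encodes biliverdin reductase B, by 1.04 ± 0.33 (limma adjusted p = 0.0323) and Fth1, the ferritin heavy chain, by 0.73 ± 0.25 (limma adjusted p = 0.0438). Both calls were lost without replicate 2 or 3 of 4C11- and without replicate 1 or 2 of 4C11+, that of Fth1 also without 4C replicate 1 or 4C11+ replicate 3, with an adjusted p of up to 0.132 for Blvrb and 0.151 for Fth1. Of 12 genes of detoxification and export, 5 rose and 2 fell in that step, 58.3% in all. Abcc2, an exporter of glutathione conjugates, was at 7.23, 7.09 and 6.84 log2 CPM in 4C11+ and at or under 3 reads in every 4C11- library, a difference of at least 8.62. Cbr1, a carbonyl reductase, was at 4.27 to 4.76 in 4C11- and at or under 3 reads in every 4C11+ library, at least 4.48 lower. Akr1b8, an aldo-keto reductase, rose by 5.03 ± 0.83 from melan-a to 4C (limma adjusted p = 0.00144), or by 3.31 without melan-a replicate 3, and was higher again in 4C11+ than in 4C by 2.93 ± 0.74 (limma adjusted p = 0.0107). Osgin1, an oxidative stress response gene, rose by 2.96 ± 0.60 from 4C11- to 4C11+ (limma adjusted p = 0.00322), with 6.75, 7.42 and 4.76 in the 4C11+ libraries.

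**Figure D3:**
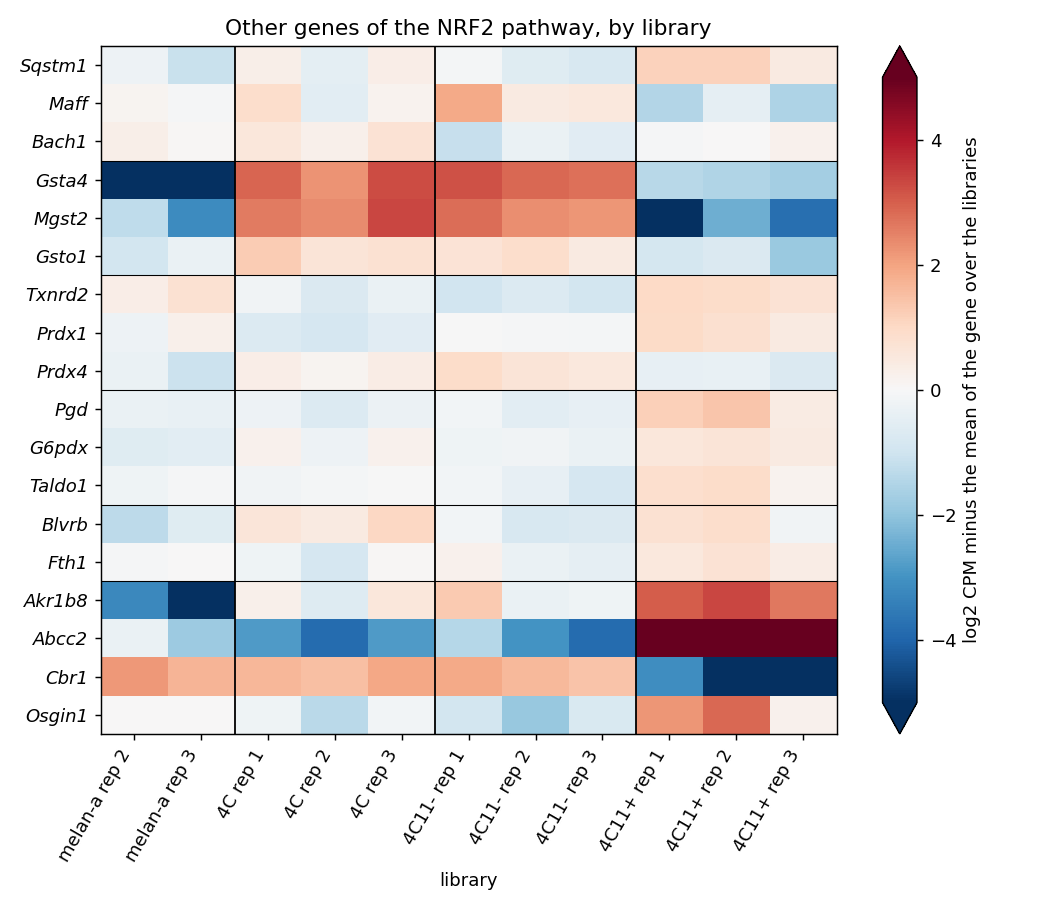
Log2 CPM minus the mean of the gene over the 11 libraries (color, limited to between -5 and 5) for 18 genes of the pathway lists in rows, with libraries in columns and lines between the cell lines and the lists. Gsta4 and Mgst2 are highest in 4C and 4C11-, whereas Sqstm1, Pgd, Abcc2 and Akr1b8 are highest in 4C11+.

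The members were next compared by their pattern over the 11 libraries, as a description in which points share cell lines. Among the 45 pairs of members, Pearson's r was -0.61 to 0.91 with a median of 0.27, and 14 pairs were negative. Of the pairs, 5 were over 0.8. They were Keap1 and Srxn1 at 0.91, Txnrd1 and Gsr at 0.91, Nfe2l2 and Slc7a11 at 0.88, Txnrd1 and Slc7a11 at 0.88, and Slc7a11 and Gsr at 0.84. The r of Srxn1 with Keap1 was above that of 99.8% of all genes with Keap1. For Slc7a11 with Nfe2l2 this share was 99.6%. It was not computed for the pairs without Keap1 or Nfe2l2, nor was the share of all gene pairs over 0.8. Keap1 and Nfe2l2 had an r of 0.26, higher than that of Keap1 with 67.1% of all genes. Nfe2l2 with Gclc had -0.57 and with Nqo1 -0.36. Among the genes with the pattern most like Keap1 were Gm1821 (0.949), Mtmr4 (0.945), Urgcp (0.941) and Tor1aip1 (0.939). Those most like Nfe2l2 were Gng12 (0.968), Vgll3 (0.959), Ugp2 (0.951), Cfl2 (0.950) and Pigb (0.949). The other 9 hubs of the light cyan module, which the study chose on the same series, had an absolute r of 0.82 to 0.93 with Keap1, negative for N4bp1, Osbpl9 and Gba2.

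**Figure D4:**
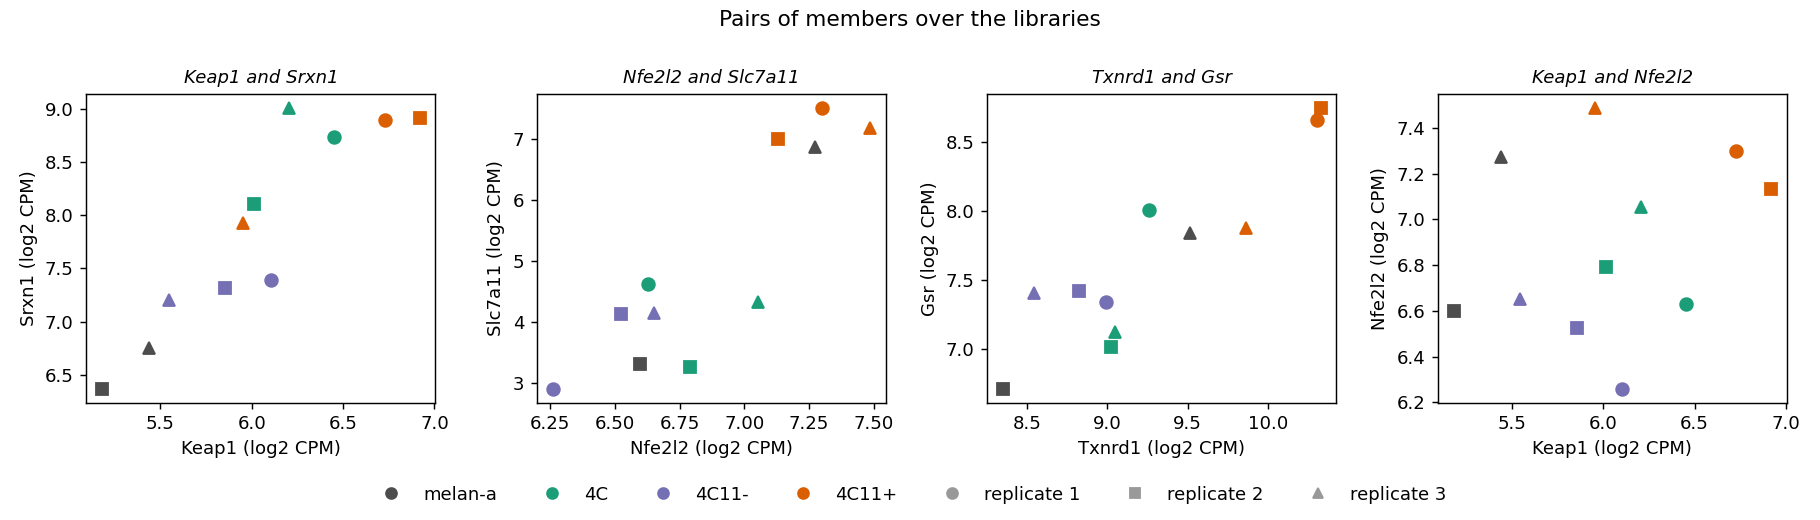
Log2 CPM of pairs of members in the 11 libraries, with the cell line as the color and the replicate as the symbol; both axes are log2 CPM. Keap1 and Srxn1, Nfe2l2 and Slc7a11, and Txnrd1 and Gsr lie along rising bands (r of 0.91, 0.88 and 0.91), whereas Keap1 and Nfe2l2 scatter (r of 0.26).

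Within lines, several members deviated together in single libraries. In 4C, replicate 2 was the lowest library for 9 of the 10 members, against 26.1% of all genes. In 4C11+, replicate 3 was the lowest for 7 of 10, against 47.3% of all genes, and it was the highest for Nfe2l2. In melan-a, replicate 2 was the lower library for 8 of 10, against 52.8% of all genes.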

How the data were processed

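The 11 libraries were made from total RNA depleted of ribosomal RNA with Ribo-Zero Gold, with a stranded kit. According to the Methods and the labels, the authors trimmed the reads with Trimmomatic, aligned them with STAR to GRCm38 (Ensembl 90), counted them per gene with Rsubread, dropped genes that did not reach 1 CPM in 4 or more libraries and normalized with voom of limma. The authors deposited the resulting log2 CPM. All libraries share the same highest value of 13.69, as after a quantile normalization, a step the Methods do not name, so a difference is relative to the other genes of a library. The values were used as deposited. Of the genes, 24 matched no symbol. Positions and exon lengths were taken from GENCODE M21 (GRCm38), and promoters from RefSeq.

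All 14272 genes were fitted together in limma 3.58.1 (R 4.3.3), using the 11 libraries, 1 mean per line and a prior variance that follows the mean level. The p-values were adjusted by Benjamini-Hochberg over all genes, and a gene was called at an adjusted p under 0.05. In an analysis without 1 melan-a library, the remaining one was assumed to vary like the other lines. NumPy 2.4.6 and pandas 2.3.3 in Python 3.11.15 gave the other values, and the fit was tested on simulated data. Read totals are unknown, and depth was estimated from the step of single reads at 40 reads. This takes the values as plain log2 CPM, so after a quantile normalization the estimate is only approximate. A difference against a line at or under 3 reads in every library is given as a bound computed at 3 reads in each library. The bound holds on the deposited scale only. The precision is limited by 2 or 3 cultures per line, and replicates are separate cultures of 1 line according to the labels. Melan-a replicate 1 was not used here.

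The list of member names and the pathway lists were drawn up with earlier results of these data known. Differences are printed for Keap1 and Nfe2l2 in every comparison and for the other members where called, for some genes also where not called, and of each list at most the 4 called genes with the largest differences in a comparison were named. The 5 genes with the highest Pearson's r with Keap1 and with Nfe2l2 were taken as most alike, of which 1 is not reported here. Each library was left out in turn, and the normalization, the filter on low values, the variance model, the libraries fitted and the replicate number as a block were varied.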

Additional observations from a re-analysis of the deposited data

Results flagged for a closer look

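In each joined group of lines (both mesenchymal-like lines, both epithelial lines, and the 3 lines other than 4C11+), the gap between the most extreme library and its neighbor was compared with the range of the group by Dixon's criterion. Of 30 groups, 3 exceeded it, and all 3 concern melan-a. The criterion is set to flag about 5% of independent samples from a single distribution. The groups join lines whose means can differ and they share libraries, so 5% is not their chance rate. In the epithelial lines, Gclc was 7.02 log2 CPM in melan-a replicate 3, above the next value of 6.40, with a gap of 0.779 of the range. Slc7a11 was 3.33 in melan-a replicate 2, below the next value of 6.87, with a gap of 0.847 of the range. Among the lines other than 4C11+, Slc7a11 was 6.87 in melan-a replicate 3, above the next value of 4.62, with a gap of 0.568 of the range. The melan-a replicate 2 library also held the highest Cd68 value (6.35) and had the lowest estimated depth (3.50 M reads), and the part of these differences in these values was not tested.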

How the results depend on the processing

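The differences of single members called in the main fit, and all those of Keap1 and Nfe2l2, were followed through the settings, 42 in all. Of their 827 values, 754 kept their direction and their side of the threshold. The differences of other members that were not called, including all of Gclm and Hmox1, are not among them, so calls gained there are not counted below. Leaving out a single library gave 408 of 462, with 49 calls lost, 3 gained and 2 reversals, and the other settings gave 346 of 365, with 8 lost, 8 gained and 3 reversals. The reversals all concern differences that were not called. They were Nfe2l2 in 4C against melan-a (0.23 without melan-a replicate 3, and -0.45 to 0.23 over all single libraries left out), Nfe2l2 in 4C11+ against melan-a (-0.0571 without melan-a replicate 2, 4C11- replicate 1 and 4C11+ replicate 3 together, a setting chosen after the data were seen), and Keap1 in the mesenchymal-like against the epithelial lines (-0.0653 with array weights, -0.17 without the 3 libraries, and -0.0374 without 4C11+ replicate 3, where single libraries left out gave -0.0374 to 0.20). Calls of Nqo1 and Srxn1 in 4C and 4C11+ against melan-a, of Nqo1 in 4C11- against melan-a and in the mesenchymal-like lines, and of Nqo1, Gclc, Txnrd1, Srxn1 and Slc7a11 in 4C11+ against 4C11- were made in every setting run. Of the 24 results of other pathway genes, 16 were called in every setting. With array weights, estimated gene by gene because the default method did not converge, 2 members were called in 4C11- against 4C and 9 members in the contrast of 4C11+ with 4C. The numbers of all genes called were then 2501 in 4C11- against 4C, 9238 in 4C11+ against 4C11-, 9458 in 4C11+ against 4C and 8720 for 4C11+ with the other lines, where equal weights gave 238, 4433, 4528 and 4856. Without the 3 libraries 4C11- differed from 4C in 2 members called and from melan-a in 3, and all genes called were 500 in 4C11- against 4C, 3529 in 4C11+ against melan-a and 7024 in 4C11+ against 4C. With only the libraries of the lines compared, 2 members were called in 4C11+ against melan-a, and all genes called were 143 in 4C11- against 4C, 843 in 4C11- against melan-a and 1446 in 4C11+ against melan-a, against 1940 and 2270 in the last pair with all lines. That setting was not run for the comparisons that join lines. With genes of a mean log2 value under 1 left out, 125 genes were called in 4C11- against 4C. When single libraries were left out, the numbers were 0 to 2 members and 93 to 320 genes in 4C11- against 4C, 1 to 2 members in 4C11- against melan-a, 2 to 6 members and 1089 to 2864 genes in 4C11+ against melan-a, 2 to 5 members in 4C11+ against 4C, and 2 to 7 members and 3001 to 5718 genes in 4C11+ against the other lines. The cause of these changes was not tested. Same-numbered libraries of different lines correlated in their deviations from the line means at -0.226 to 0.388 over 15 pairs, with 8 over 0.1. The labels name no batch that a number shares, not every pair was over 0.1, and not every library correlated best with one of its own number, so the numbers were not taken as a pairing. With the replicate number as a block, 7 members were called in 4C11+ against 4C11-, where 4715 of all genes were, against 4433 without the block. In the mesenchymal-like against the epithelial lines 5 members were called, with Nfe2l2 at -0.43 (limma adjusted p = 0.0485). There 4566 of all genes were called, against 4232 without the block. In 4C11- against 4C 254 genes were called with the block. At 3.50 to 7.42 M reads, the size of a difference against a line with almost no reads of a gene is poorly known.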
